A study of Arabidopsis thaliana with 16 samples.

Results

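AT4G04460, AT5G10770 and SBT4.12 (AT5G59090) are Arabidopsis genes for secreted or vacuolar-type proteases, the first pair coding for aspartic proteases and SBT4.12 for a subtilase. They are 3 of the 13355 genes that the annotation of the ATH1 array pairs with a probe set, and each was read from 1 probe set, its brightest where several existed. The genes were chosen on their changes between WT stages: AT4G04460 for its lower signal at D7I than in WT zygotic embryos, and AT5G10770 and SBT4.12 for their higher signal in WT mature somatic embryos than at D14I. Those WT changes are therefore given as a description, with no test. The vtc2-5 arrays had no part in that choice.

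Somatic embryogenesis was followed in vtc2-5 and in WT, the Columbia-0 accession. The line vtc2-5 is a homozygous T-DNA insertion line in the Columbia-0 background, 1 allele of VTC2, which codes for an enzyme of ascorbate synthesis, GDP-L-galactose phosphorylase. In each genotype RNA came from hand-dissected zygotic embryos at the bent-cotyledon stage, from explants at days 7 and 14 of induction (D7I and D14I), on a medium with the auxin 2,4-D, and from mature somatic embryos at day 14 of maturation, on a medium without hormone, with 2 biological replicates and so 2 arrays in each of the 8 groups. Both genotypes had the same explants and media, and VTC2 itself was not analysed here, so that the genotype labels were not checked on its transcript. RNA was taken from embryos or explants with no separation of cell types, in which fewer cells of a type and less RNA per cell cannot be told apart.

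Aspartic proteases cut proteins with a pair of aspartate residues, and the plant enzymes range from vacuolar types with a plant-specific insert, active on seed proteins, to a large family of atypical and often secreted forms. AT4G04460 belongs to the vacuolar type and is widely used as a marker of developmental cell death, whereas AT5G10770 belongs to the atypical family, near the tobacco protease CND41. Subtilases are serine proteases with an aspartate, histidine and serine triad; most plant members enter the secretory pathway and act in the cell wall or outside the cell, and SBT4.12 lies in a tandem row of related genes. In Arabidopsis seeds, proteases of several classes process storage proteins in the embryo, and others act in the dying layers of the seed coat.

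The 3 genes had different profiles over culture, shown in the plot of signals by array. AT4G04460 was high in zygotic embryos of both genotypes and at most 34.9 on any later array. SBT4.12 was the reverse, at most 39.7 until D14I and high in mature somatic embryos of both genotypes. AT5G10770 was high in mature somatic embryos of WT, and in vtc2-5 its highest signals were those of zygotic embryos. Signals are intensities on the linear scale of the array, scaled so that the trimmed mean of each array is 500. A signal under 30 is called dim here, a level exceeded by 69.2 to 78.1% of all probe sets on each array. Replicate arrays correlated at 0.922 to 0.962 over all probe sets, on the log2 scale. Replicate 1 of WT mature somatic embryos stood apart in embryo genes, which is described beside the genotype comparison.

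**Figure D1:**
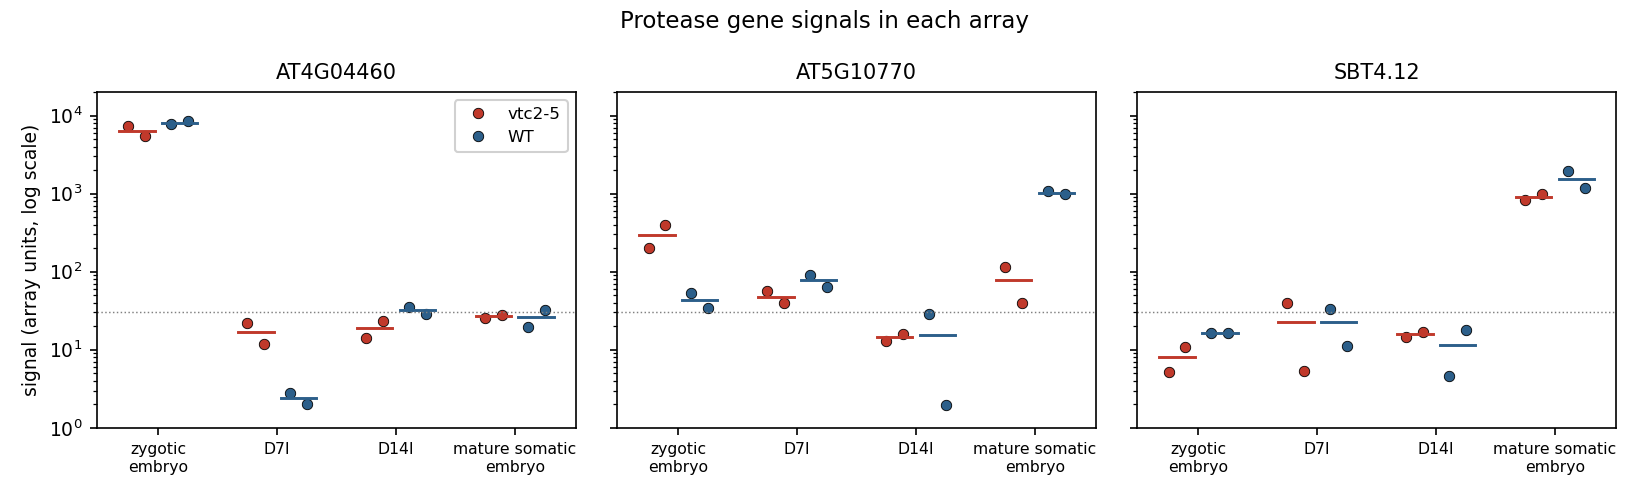
Signal of AT4G04460, AT5G10770 and SBT4.12 on each of the 16 arrays, on a log axis in array units, by stage, with vtc2-5 left of WT. Points are arrays, bars are means of 2 arrays, and the dotted line marks a signal of 30. AT4G04460 reads at most 34.9 after the zygotic stage in both genotypes, SBT4.12 reads 817 or more in mature somatic embryos and at most 39.7 elsewhere, and AT5G10770 reads 1071 and 977 in WT mature somatic embryos and at most 391 elsewhere.

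AT4G04460 (chromosome 4, 2224422 to 2227874, TAIR10.1 assembly, 2 annotated transcripts) had signals of 7281 and 5418 in vtc2-5 zygotic embryos, against 7754 and 8415 in WT zygotic embryos. At D7I the signals were 21.7 and 11.97 in vtc2-5 and 2.82 and 2.02 in WT. The gene was thus bright in the explants and dim after the first week of induction, in both genotypes. At D14I the arrays read 14.3 and 23.4 in vtc2-5 and 34.9 and 28.7 in WT, and in mature somatic embryos 25.7 and 27.7 in vtc2-5 and 19.5 and 32.7 in WT. After D7I the groups lay close to the dim limit, and mature somatic embryos of both genotypes overlapped.

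In vtc2-5, the arrays not used to pick the gene, AT4G04460 fell by 8.61 on the log2 scale at D7I relative to zygotic embryos (SE 0.37, limma adjusted p = 3.11e-07). It was called, as were 30.1% of all probe sets in that comparison, where a call needs an adjusted p under 0.05 and at least a 2-fold difference. Later steps in vtc2-5 were small: the difference was 0.18 between D14I and D7I (95% interval -0.64 to 1.004) and 0.55 between mature somatic embryos and D14I (-0.28 to 1.37, adjusted p = 0.294). The gene did not return to its zygotic level, since mature somatic embryos of vtc2-5 lay below zygotic embryos by a log2 difference of -7.88 (adjusted p = 7.75e-07), a comparison chosen after the values were seen, in which 28.3% of probe sets were called. In WT the same 3 steps were -11.72, 3.73 and -0.32 on the log2 scale, as a description. The WT step between D7I and D14I is one between signals of at most 34.9, and with 30 added to each signal before log2 it was 0.93.

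Mean signals of AT4G04460 in zygotic embryos were 6350 ± 1317 in vtc2-5 and 8084 ± 468 in WT (SD, n = 2 in each group here). They were 16.8 ± 6.89 in vtc2-5 and 2.42 ± 0.568 in WT at D7I, 18.8 ± 6.45 in vtc2-5 and 31.8 ± 4.44 in WT at D14I, and 26.7 ± 1.39 in vtc2-5 and 26.1 ± 9.31 in WT in mature somatic embryos. From high to low the groups were zygotic embryos of WT and of vtc2-5, D14I of WT, mature somatic embryos of vtc2-5 and of WT, D14I of vtc2-5, D7I of vtc2-5 and D7I of WT. The arrays of WT mature somatic embryos overlapped those of the groups on both sides of it, and D14I and D7I of vtc2-5 overlapped each other. The arrays of the zygotic groups did not overlap each other or any later group.

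Other genes known for developmental cell death or for the seed coat were read beside AT4G04460. Of 7 listed cell death markers 4 had a probe set, AT4G04460 included. AT4G18425, a DUF679 membrane protein used as a cell death marker, had 22.8 and 15.02 in vtc2-5 against 2.07 and 5.20 in WT at D7I, and 454 and 488 in vtc2-5 against 1086 and 515 in WT in zygotic embryos. AT4G18425 fell by 4.67 at D7I relative to zygotic embryos in vtc2-5 (limma adjusted p = 1.98e-04). Like AT4G04460 it was lowest at D7I of WT, but AT4G04460 had been chosen for its low signal there. The D7I signals of both genes were dim, and the genotype difference of AT4G18425 at D7I was not called (limma adjusted p = 0.0558). AT2G14095, another such marker, read 63.6 and 73.3 in vtc2-5 zygotic embryos and 96.3 and 66.7 in WT zygotic embryos, and at most 31.3 on any later array. The carboxypeptidase gene scpl48 had another course, with 2276 and 1589 in vtc2-5 zygotic embryos, 2185 and 2472 in WT zygotic embryos, and between 901 and 2335 on later arrays.

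The summed signal of the 4 cell death markers was 7568 to 10075 in vtc2-5 zygotic embryos and 11121 to 11468 in WT zygotic embryos, and 937 to 2400 on all later arrays, most of the zygotic sum being AT4G04460 itself. Of 9 listed seed coat markers 3 had a named probe set, BAN, ARA12 and AT3G50990. BAN, the anthocyanidin reductase gene of the seed coat, read 262 and 108 in vtc2-5 zygotic embryos and 199.99 and 532 in WT zygotic embryos, and at most 15.4 on the 12 arrays of later stages. AT3G50990, a listed seed coat gene, was dim apart from 1 WT zygotic array, at 35.4. ARA12, a subtilase acting on seed coat mucilage, was higher on the D7I and D14I arrays than in zygotic embryos, so that the sum over these 3 genes was 2172 to 3045 in vtc2-5 zygotic embryos, 2766 to 4419 in WT zygotic embryos and 1861 to 8788 later. DELTA-VPE, a vacuolar processing enzyme of the inner seed coat that stands in another list here, read 713 and 568 in vtc2-5 zygotic embryos and 1460 and 774 in WT zygotic embryos, and at most 39.3 later. Of the endosperm markers only IKU2 and AGL62 had a named probe set, and neither exceeded 53.1 on any array. Thus BAN and DELTA-VPE, but not ARA12, moved with AT4G04460 out of the zygotic stage. The fall was not particular to such genes. The photosynthesis genes PSAN and LHCB4.2 had means of 10256 and 10351 in vtc2-5 zygotic embryos and 32.3 and 62.6 at D7I of vtc2-5. The part of tissue carried over from the seed in the zygotic signal of AT4G04460 was not tested.

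**Figure D2:**
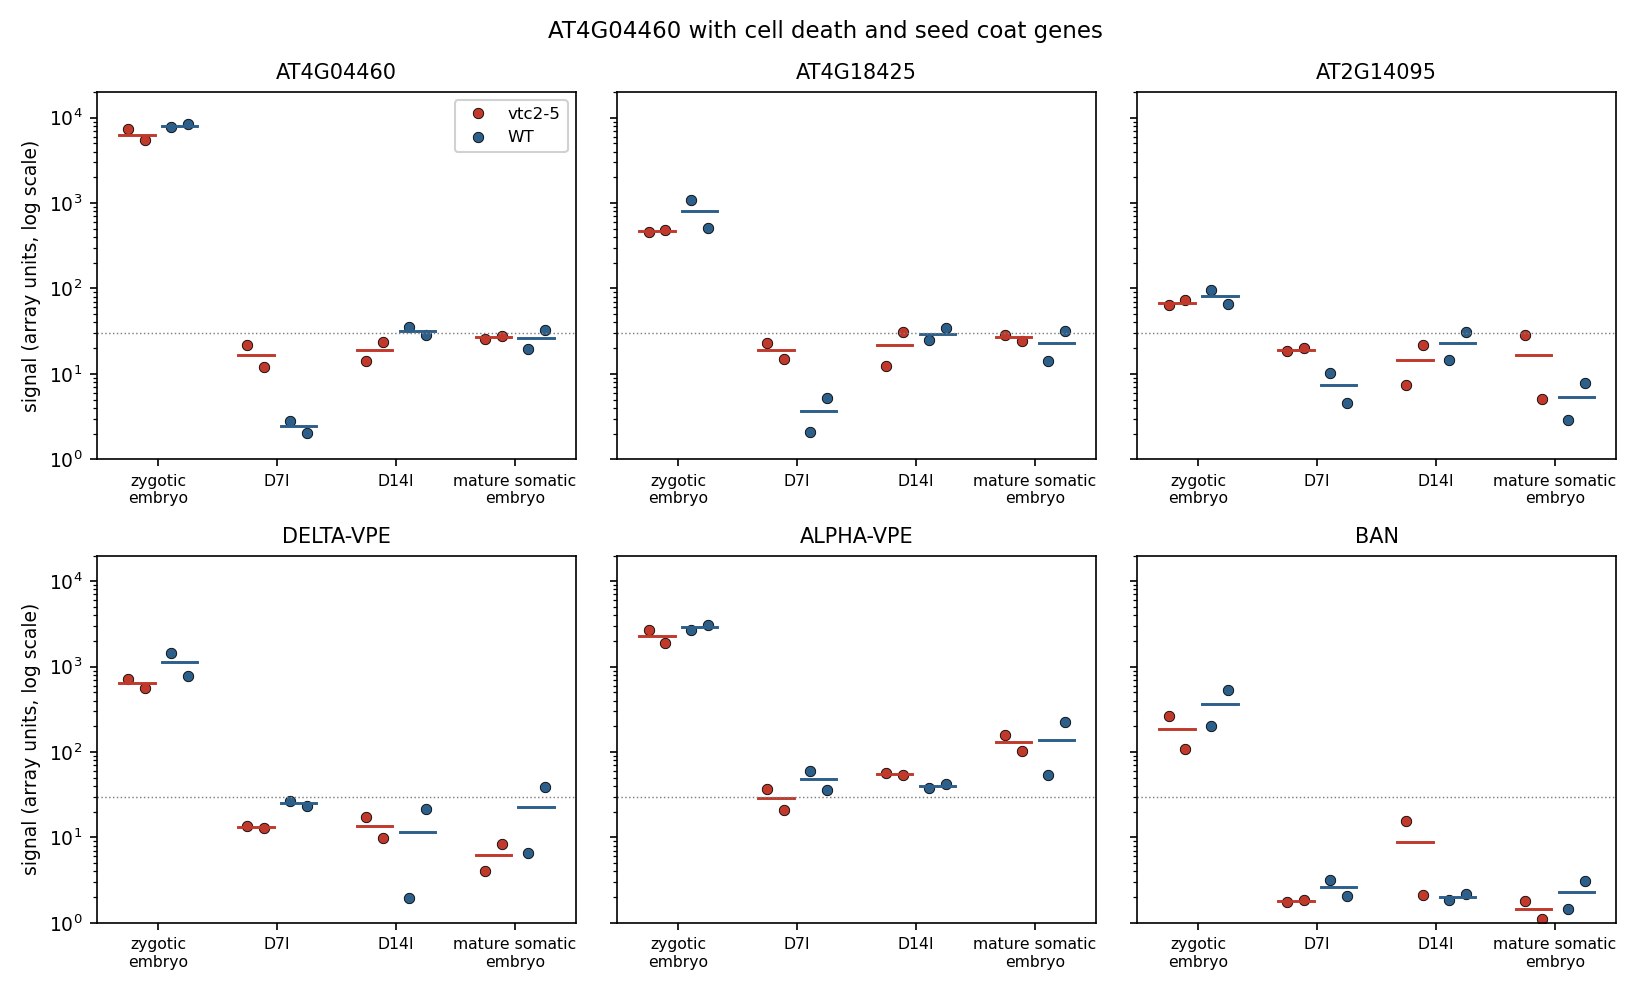
Signal on each of the 16 arrays, on a log axis in array units, of AT4G04460, the cell death markers AT4G18425 and AT2G14095, and DELTA-VPE, ALPHA-VPE and BAN, by stage, with vtc2-5 left of WT. Points are arrays, bars are means of 2 arrays, and the dotted line marks a signal of 30. Each gene drawn has its highest signals in zygotic embryos, and BAN reads at most 15.4 on all later arrays. Not drawn are scpl48, ARA12, BETA-VPE and GAMMA-VPE of the same lists, which had other profiles.

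Over the 16 arrays, and among genes with at least 1 group mean of 100 or more, the genes most like AT4G04460 were AT2G34590 (Pearson r 0.986), AT4G18425 (0.977), AT3G17800 (0.974), AT3G62730 (0.967) and AT4G10030 (0.966). These correlations are across arrays that share the jump between zygotic embryos and culture, and they describe that jump more than any spread within a stage. AT2G34590, which codes for a subunit of the plastid pyruvate dehydrogenase, read 2557 and 2347 at D7I of vtc2-5, against 10647 and 10158 in vtc2-5 zygotic embryos. Its change was far smaller than that of AT4G04460, at -2.09 on the log2 scale (adjusted p = 4.90e-06). In vtc2-5 the step from zygotic embryos to D7I was called downward for each of these 5 genes, with log2 differences of -7.24 to -1.68. The measured neighbours of AT4G04460 on the chromosome, WRKY42 and AT4G04480, did not share its profile (r 0.06 and -0.01).

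AT5G10770 (chromosome 5, 3403021 to 3405571, 1 annotated transcript) read 198 and 391 in vtc2-5 zygotic embryos, against 53.0 and 34.4 in WT zygotic embryos. At D7I it read 55.9 and 40.1 in vtc2-5 and 91.6 and 64.0 in WT, and at D14I 13.1 and 16.1 in vtc2-5 and 29.0 and 1.94 in WT. All signals at D14I were dim, and on the log2 scale the WT pair there differed more than any other pair of the gene. In mature somatic embryos it read 116 and 40.1 in vtc2-5, against 1071 and 977 in WT. The genotypes did not overlap in zygotic embryos, where vtc2-5 was higher, nor at D7I and in mature somatic embryos, where vtc2-5 was lower.

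Mean signals of AT5G10770 were 295 ± 136 in vtc2-5 and 43.7 ± 13.1 in WT in zygotic embryos, 48.0 ± 11.2 in vtc2-5 and 77.8 ± 19.6 in WT at D7I, 14.6 ± 2.13 in vtc2-5 and 15.5 ± 19.1 in WT at D14I, and 77.9 ± 53.5 in vtc2-5 and 1024 ± 66.7 in WT in mature somatic embryos (SD, n = 2 each). From high to low the groups were WT mature somatic embryos, vtc2-5 zygotic embryos, vtc2-5 mature somatic embryos, D7I of WT, D7I of vtc2-5, WT zygotic embryos, and D14I of WT and of vtc2-5. The arrays of vtc2-5 mature somatic embryos overlapped those of the next 3 groups, and both D14I groups overlapped each other. The pair at the top of this order overlapped no other group.

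Within vtc2-5 no step of AT5G10770 was called, although its first step had an unadjusted p of 0.0311 in limma, while 3.9% of probe sets were called between D14I and D7I and 22.5% between mature somatic embryos and D14I. The log2 differences were -2.56 between D7I and zygotic embryos (95% interval -4.83 to -0.29, limma adjusted p = 0.0721), -1.70 between D14I and D7I (adjusted p = 0.394) and 2.23 between mature somatic embryos and D14I (-0.04 to 4.50, adjusted p = 0.124). With 30 added to the signals, which damps the scatter among dim values, the step out of the zygotic stage was -2.00 (adjusted p = 9.00e-04) and that into mature somatic embryos 1.18 (adjusted p = 0.0268). Mature somatic embryos of vtc2-5 differed from its zygotic embryos by -2.03 (adjusted p = 0.149). In WT, as a description, the 3 steps were 0.84, -3.35 and 7.09. The first step differed between the genotypes by -3.40 (adjusted p = 0.307), in a comparison that called 0.462% of probe sets, and with the added 30 by -2.55 (adjusted p = 0.0388).

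No gene followed AT5G10770 as closely as those found for the others. The most alike over the 16 arrays were AT3G28760 (r 0.895), AT3G43610 (0.844), AT5G67350 (0.839), AT4G09970 (0.833) and AT2G19780 (0.831). AT3G28760 read 228 and 260 in vtc2-5 zygotic embryos and 138 and 143 in WT zygotic embryos. At maturity it read 156 and 140 in vtc2-5 and 188 and 241 in WT. It had the same genotype order at both embryo stages over a much narrower range. The 7 measured neighbours of AT5G10770 within 5 genes on the chromosome had r between -0.42 and 0.12.

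SBT4.12 (chromosome 5, 23851679 to 23855499, 3 annotated transcripts) read 5.17 and 10.8 in vtc2-5 zygotic embryos and 16.5 and 16.4 in WT zygotic embryos. At D7I it read 39.7 and 5.31 in vtc2-5 and 33.6 and 11.1 in WT, and at D14I 14.6 and 16.9 in vtc2-5 and 4.66 and 18.1 in WT. These 12 signals were at most 39.7, and the genotypes overlapped at D7I and D14I but not in zygotic embryos. In mature somatic embryos the gene read 817 and 973 in vtc2-5, against 1918 and 1186 in WT. All 4 signals lay far above those of the earlier stages, and the vtc2-5 arrays lay below the WT arrays without overlap.

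In vtc2-5, SBT4.12 rose by 5.83 on the log2 scale in mature somatic embryos relative to D14I (SE 0.94, 95% interval 3.73 to 7.92, limma adjusted p = 0.00154), a call kept in each of 8 other settings of the analysis. Relative to zygotic embryos of vtc2-5 the difference was 6.90 (adjusted p = 3.24e-04). The group means there were 895 ± 110 in mature somatic embryos and 8.00 ± 4.01 in zygotic embryos (SD, n = 2 each). Mean signals of SBT4.12 at D7I were 22.5 ± 24.3 in vtc2-5 and 22.3 ± 15.9 in WT, and at D14I 15.7 ± 1.62 in vtc2-5 and 11.4 ± 9.51 in WT, with no order beyond their spread. Its earlier steps in vtc2-5 were 0.96 (-1.14 to 3.05) and 0.11 (-1.98 to 2.21), and neither passed the test. In WT, as a description, the steps were 0.23, -1.07 and 7.36. The step from zygotic embryos to D7I differed between the genotypes by 0.73 (-2.24 to 3.69, adjusted p = 0.855).

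SBT4.12 lies beside other subtilase genes on chromosome 5, whose signals are drawn in the plot of SBT4.12 and its neighbours. AT5G59100, the next gene, was high at D7I and D14I, when SBT4.12 was dim in group mean. It read 565 and 544 in vtc2-5 and 826 and 1060 in WT at D7I, and 689 and 557 in vtc2-5 and 889 and 835 in WT at D14I. At maturity it read 18.3 and 13.6 in vtc2-5 and 8.81 and 1.77 in WT. In vtc2-5 it rose by 4.74 at D7I relative to zygotic embryos (limma adjusted p = 0.00123). It fell by 5.30 in mature somatic embryos relative to D14I (limma adjusted p = 0.00132), a step in which SBT4.12 rose. SBT4.13, further along, had its highest signals in zygotic embryos (80.3 and 73.6 in vtc2-5, 87.3 and 325 in WT) and fell by 4.35 at D7I in vtc2-5 (adjusted p = 0.00279). AT5G59130 was dim in group mean at every stage. Subtilases of 1 row thus peaked in zygotic embryos, during induction or in mature somatic embryos. Related neighbours can share probe sequence, which was not checked here, although the profiles of these probe sets differed.

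AT5G59080, a gene of the same stretch that is no listed subtilase, resembled SBT4.12 (r 0.825). It read 220 and 225 in vtc2-5 and 251 and 216 in WT mature somatic embryos, and at most 34.4 on earlier arrays, and in vtc2-5 it rose by 4.08 relative to D14I (adjusted p = 1.28e-04). AT5G59060 and AT5G59070, on the same side, had their highest signals during induction and fell in vtc2-5 mature somatic embryos relative to D14I, with log2 differences of -3.02 (adjusted p = 0.0102) and -3.10 (adjusted p = 0.00543).

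**Figure D3:**
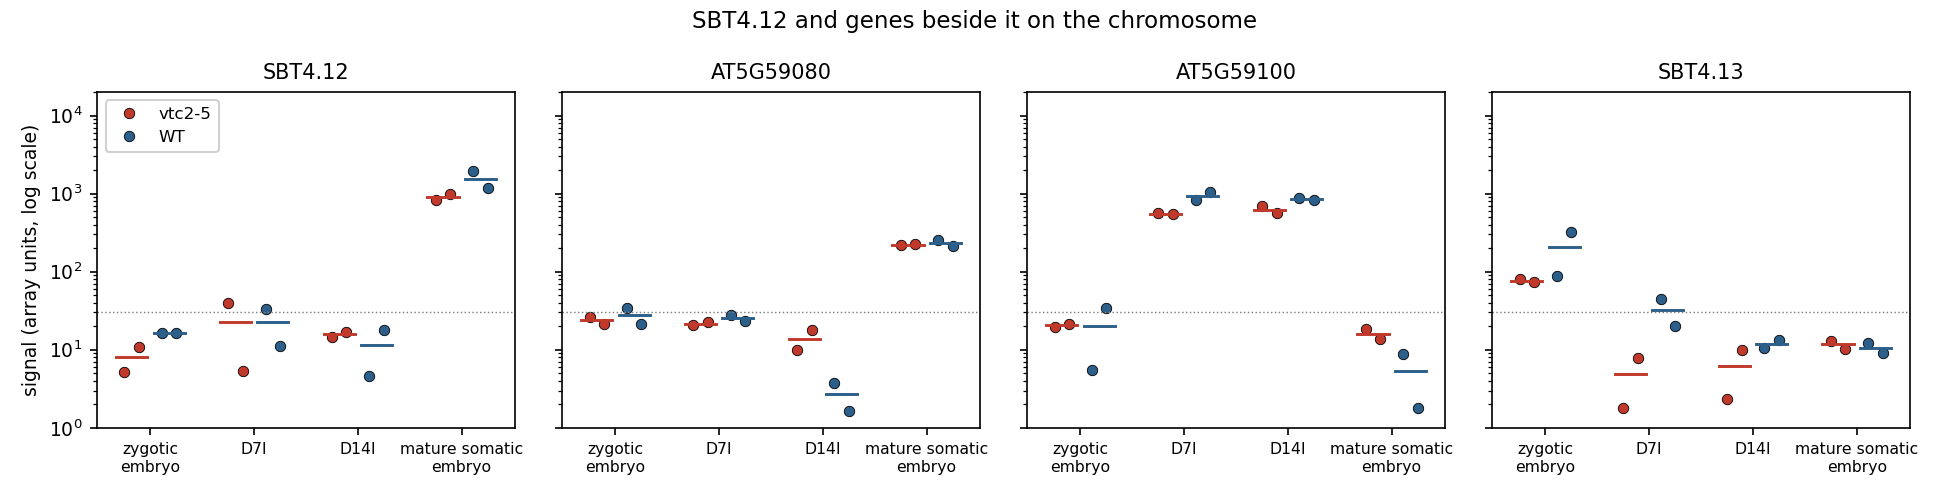
Signal on each of the 16 arrays, on a log axis in array units, of SBT4.12 and of AT5G59080, AT5G59100 and SBT4.13 from the same stretch of chromosome 5, by stage, with vtc2-5 left of WT. Points are arrays, bars are means of 2 arrays, and the dotted line marks a signal of 30. SBT4.12 and AT5G59080 are high in mature somatic embryos, AT5G59100 at D7I and D14I, and SBT4.13 in zygotic embryos.

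Elsewhere in the genome the genes most like SBT4.12 were AT5G66390 (r 0.963), AT3G05920 (0.958), AT1G06640 (0.957), AT2G04800 (0.955) and AT3G62930 (0.954), again over 16 arrays that share 1 jump. AT5G66390, a class III peroxidase, read 428 and 556 in vtc2-5 and 503 and 555 in WT mature somatic embryos, and at most 13.7 on any earlier array. AT3G05920 read 177 and 132 in vtc2-5 and 157 and 133 in WT mature somatic embryos. In vtc2-5 the step from D14I to mature somatic embryos was called upward for each of these 5 genes, with log2 differences of 2.69 to 6.34. Between the members themselves, AT5G10770 and SBT4.12 had r 0.49, AT4G04460 and AT5G10770 0.16, and AT4G04460 and SBT4.12 -0.26.

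The genotypes were compared at each stage, to ask whether the genes differ between ascorbate-deficient and WT tissue. WT arrays on which a gene had been chosen enter its comparison at zygotic embryos and D7I for AT4G04460, and at D14I and in mature somatic embryos for AT5G10770 and SBT4.12. Those comparisons are not independent of the choice, and their values are a description with no test. In the other 6 no gene was called, and 1 had an unadjusted p under 0.05 in limma, that of AT5G10770 in zygotic embryos. The genotypes differed, by call, in 0.0352% of all probe sets for zygotic embryos, 2.7% for D7I, 0.022% for D14I and 3.84% for mature somatic embryos.

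The log2 difference of AT4G04460 between vtc2-5 and WT at D7I was 2.76, with both vtc2-5 arrays above both WT arrays. All 4 signals were dim, and the gene was chosen for its low WT signal at this stage. With 30 added the difference was 0.52. In zygotic embryos the difference was -0.36, also as a description. At D14I it was -0.79 (95% interval -1.62 to 0.03) and in mature somatic embryos 0.08 (-0.74 to 0.90), neither passing the test. The step from D14I to mature somatic embryos differed between the genotypes by 0.87 (adjusted p = 0.427), where 0.101% of probe sets were called.

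The log2 difference of AT5G10770 between vtc2-5 and WT mature somatic embryos was -3.91, a 15.02-fold difference in signal, and the gene was chosen for its high WT signal at this stage. It ran from -4.67 to -3.14 when each of the 4 arrays was left out in turn, and with 30 added it was -3.38. In zygotic embryos, whose arrays had no part in the choice, the gene was higher in vtc2-5 by 2.71 (0.43 to 4.98), with an unadjusted p of 0.0243 from limma and an adjusted p of 0.622, which is no call. At D7I the difference was -0.69 (-2.97 to 1.58). The value at D14I, a description, was 0.96, and -0.99 without replicate 2 of WT D14I, so that no direction can be given at that stage.

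SBT4.12 was not called between the genotypes in zygotic embryos or at D7I, and its unadjusted p in limma was at least 0.253. The log2 difference was -1.14 in zygotic embryos (95% interval -3.23 to 0.96) and -0.41 at D7I (-2.51 to 1.68). Both intervals span differences of over 2-fold in the lower direction, and that at D7I also in the higher direction. As a description, it was 0.77 at D14I and -0.76 in mature somatic embryos. Means of mature somatic embryos were 895 ± 110 in vtc2-5 and 1552 ± 517 in WT (SD, n = 2 each). Without replicate 1 of WT the difference there was -0.41.

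**Figure D4:**
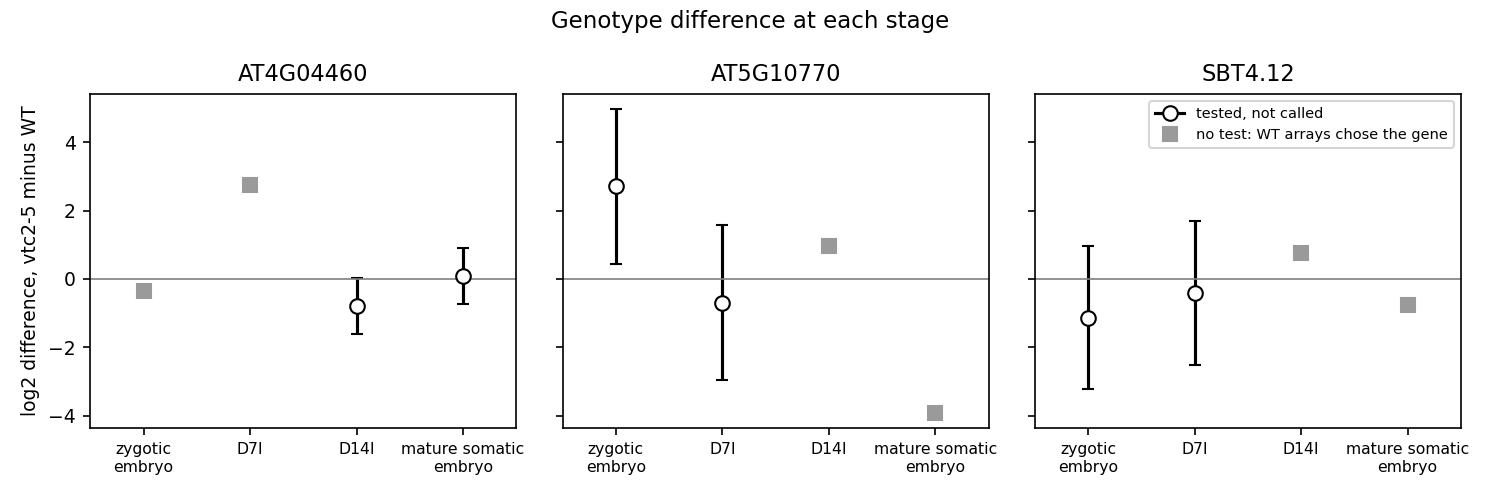
Log2 difference between vtc2-5 and WT at each stage for AT4G04460, AT5G10770 and SBT4.12, with positive values higher in vtc2-5. Open points with bars are estimates from 2 arrays per group with 95% intervals from the limma fit, none of them called, and grey squares are comparisons with no test, which hold WT arrays on which the gene was chosen, among them AT4G04460 at D7I (2.76) and AT5G10770 in mature somatic embryos (-3.91).

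The WT arrays of mature somatic embryos differed from each other in embryo genes, and this touches the comparison of AT5G10770 and SBT4.12. AT1G03890, the listed storage protein gene with a named probe set, read 5947 and 7444 in vtc2-5 and 29.3 and 10538 in WT mature somatic embryos. AT1G62290, a vacuolar-type aspartic protease, read 10765 and 9350 in vtc2-5 and 480.1 and 13612 in WT. AT5G10770 and SBT4.12 did not share this gap, since their WT arrays differed by less than 2-fold. None of the 6 listed regulators of embryo maturation and 1 of the 9 storage proteins had a probe set with a gene name, so that the embryo label rests on AT1G03890 here. The photosynthesis genes LHCB4.2 (1321 and 1509 in vtc2-5, 701 and 544 in WT) and PSAN (2806 and 2513 in vtc2-5, 1674 and 749 in WT) were higher on both vtc2-5 arrays of mature somatic embryos, with no call. Whether the make-up of the embryos had a part in the difference of AT5G10770 was not tested.

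Both protease families were read as a whole beside the 3 genes, from lists of gene identifiers, with the brightest probe set per gene. Of 69 listed aspartic proteases 56 had a probe set with 1 gene in the annotation and are called measured here, 45 of them with a group mean over 30. In vtc2-5 at D7I, relative to zygotic embryos, 12 rose and 9 fell, against 4092 and 2760 of all probe sets, or 3215 and 3429 with arrays centred on their medians, and the median log2 difference over the list was 0.37, against 0.19 over all probe sets. AT4G04460 had the lowest difference of the list, followed by AT1G09750 (-8.36, adjusted p = 3.19e-07), a secreted aspartic protease, and AT5G07030 (-4.32, adjusted p = 2.42e-06). AT1G09750 read 31.5 and 35.4 at D7I of vtc2-5, against 10190 and 11777 in vtc2-5 zygotic embryos, a drop of the same order as that of AT4G04460. Those that rose most were AT1G44130 (3.31), NANA (3.28), a plastid aspartic protease, and AT4G16563 (2.24). AT1G44130 was dim at both stages, with signals of 1.20 and 3.06 in vtc2-5 zygotic embryos and a mean of 19.8 at D7I of vtc2-5.

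Between D14I and D7I of vtc2-5, 11 of the 56 aspartic proteases had an unadjusted p under 0.05 in limma, against 4688 of all 22746 probe sets. Of the 56, 0 were called higher and 3 fell, against 343 and 544 over all probe sets, or 541 and 382 with median centring: AT5G37540 (-1.26), AT1G25510 (-1.24) and AT2G39710 (-1.01). In mature somatic embryos relative to D14I 8 of the 56 rose and 2 fell, against 2560 and 2557 of all probe sets (22.5% called), with a list median of 0.27 against -0.16 over all probe sets. AT1G09750 rose again, by 4.99 (adjusted p = 1.89e-05), with 666 and 525 in vtc2-5 mature somatic embryos, unlike AT4G04460. AT4G30040 (2.04) and AT3G54400 (1.46) were next, while AT5G22850 (-1.28) and AT1G01300 (-1.16) fell. AT4G30040 was dim at both stages, with vtc2-5 means of 2.1 at D14I and 8.8 in mature somatic embryos. The difference of AT5G10770 in this step, 2.23, lay above that of AT4G30040 but did not pass the test.

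Between the genotypes no aspartic protease was called in zygotic embryos or at D14I. At an unadjusted p under 0.05 in limma were 6 and 2 of the 56, against 1558 and 1024 of all 22746 probe sets. At D7I 2 were higher and 1 lower in vtc2-5, against 451 higher and 163 lower over all probe sets, or 300 and 267 with that centring: AT4G04460, which had been chosen on these WT arrays and supports nothing here, AT1G25510 (1.10, adjusted p = 0.0337) and AT3G59080 (-1.01, adjusted p = 0.0371). AT1G25510 read 837 and 928 in vtc2-5 and 449 and 378 in WT at D7I. The count of 3 was 1 without either array of WT or replicate 2 of vtc2-5, and 0 without replicate 1 of vtc2-5. In mature somatic embryos 2 were higher and 3 lower in vtc2-5, against 384 higher and 490 lower over all probe sets. Those higher were AT1G44130 (2.82, adjusted p = 0.0485), with signals of at most 30.8 in either genotype, and AT1G09750 (2.01, adjusted p = 0.0189). Those lower were AT5G10770, likewise chosen on WT arrays of this stage and no support here, AT3G50050 (-1.16, adjusted p = 0.0341) and AT4G35880 (-1.04, adjusted p = 0.0494). The counts at D7I and in mature somatic embryos each hold a chosen gene, for which no test is given. The count of 5 was 2 without replicate 1 of WT, 6 without replicate 2 of WT and 0 without either array of vtc2-5. With arrays centred on their medians, the split over all probe sets in mature somatic embryos was 539 higher and 186 lower, and the median over all probe sets without that centring was -0.15. AT1G09750 read 666 and 525 in vtc2-5 and 226 and 95.6 in WT mature somatic embryos, the opposite order to AT5G10770.

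**Figure D5:**
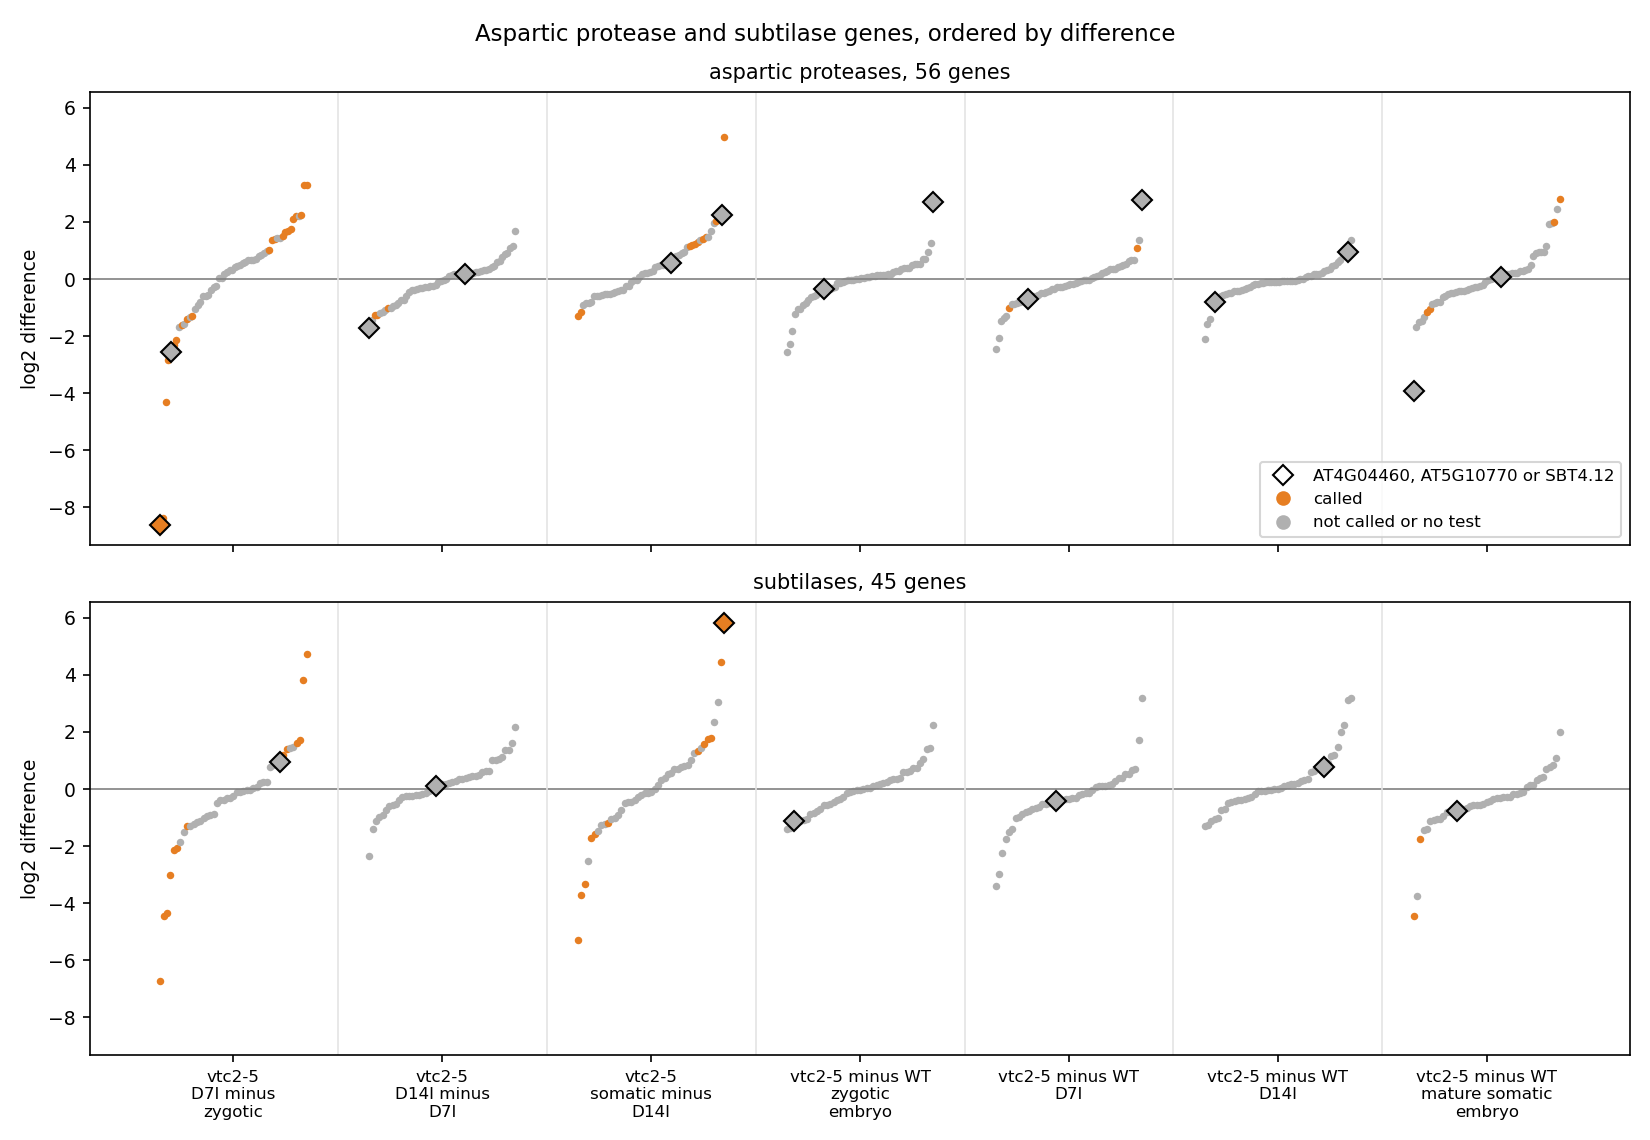
Log2 difference of 56 aspartic protease genes and 45 subtilase genes in 7 comparisons: 3 stage steps within vtc2-5 and vtc2-5 minus WT at 4 stages. Within each comparison genes run from the lowest to the highest difference, called genes are orange, and diamonds mark AT4G04460 and AT5G10770 above and SBT4.12 below, grey where not called or not tested. AT4G04460 lies at the low end of the first step, SBT4.12 at the high end of the third, and AT5G10770 at the low end of the comparison of mature somatic embryos.

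Of the subtilases 45 were measured, 31 with a group mean over 30. In vtc2-5 at D7I relative to zygotic embryos 6 of the 45 rose and 7 fell, where 30.1% of all probe sets were called, with a list median of -0.23 against 0.19 over all probe sets. SBTI1.1 (-6.74, adjusted p = 3.81e-05), SBT1.3 (-4.46) and SBT4.13 fell most, and AT5G59100, SBT3.3 (3.82, adjusted p = 2.87e-05), a subtilase linked to immune priming, and AT5G67090 (1.71) rose most. SBTI1.1 read 36.5 and 24.2 at D7I of vtc2-5, against 4997 and 2020 in vtc2-5 zygotic embryos. None was called between D14I and D7I, where 4 of the 45 had an unadjusted p under 0.05 in limma, against 4688 of all 22746 probe sets.

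In vtc2-5 mature somatic embryos relative to D14I 6 of the 45 subtilases rose and 6 fell, where 22.5% of all probe sets were called. SBT4.12 had the highest difference of the list, followed by SBTI1.1 (4.45, adjusted p = 0.00113), which reached 119 and 136, and ATSBT5.2 (1.80). Those that fell most were AT5G59100, AT4G10540 (-3.71) and AT1G32970 (-3.32), the last pair with dim signals on all arrays. ARA12 (-1.70), S1P (-1.59), the Golgi protease that activates membrane-bound transcription factors, and TPP2 (-1.18), a tripeptidyl peptidase, also fell. SBT4.12 was dim in group mean at each stage before it rose, whereas SBTI1.1 returned in part to its zygotic level.

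Between the genotypes no subtilase was called in zygotic embryos, at D7I or at D14I. At an unadjusted p under 0.05 in limma were 3, 4 and 5 of the 45, against 1558, 4679 and 1024 of all 22746 probe sets. Of the subtilases in mature somatic embryos 2 were lower in vtc2-5, ATSBT5.2 (-1.75, adjusted p = 0.0449) and AT4G10540 (-4.46, adjusted p = 0.0221), 2 of 45 where 3.84% of all probe sets were called. ATSBT5.2 read 82.9 and 93.7 in vtc2-5 and 424 and 207 in WT, while AT4G10540 was dim in both. The count of 2 was 1 without replicate 1 of WT, 3 without replicate 2 of WT and 0 without either array of vtc2-5. The list median was -0.45, against -0.15 over all probe sets, and SBT4.12, as a description, was at -0.76.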

How the data were processed

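RNA from 16 samples, 2 of each of 8 groups of genotype and stage, was measured on the 1-colour Affymetrix ATH1 array. The table deposited holds linear intensities, 1 per probe set and array, which the authors made with Affymetrix software and which were scaled on each array to a trimmed mean of 500 with 2% of values trimmed at each end. The methods also name RMA, whose values these are not. No scanner files were used, so that nothing before the probe set summary, nor any detection call, could be redone, and 2 arrays per group limit the precision.

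Intensities were taken to log2 with no offset and fitted with limma 3.58.1 in R 4.3.3, with 1 mean for each group, all 16 arrays, 8 residual and 1.62 prior degrees of freedom. After 64 of 22810 probe sets were set aside as controls, p values were adjusted by Benjamini-Hochberg over 22746 probe sets, and calls needed at least 2-fold and an adjusted p under 0.05, the thresholds of the methods. Multiclass SAM of the methods covers 8 groups at once and was not used for single comparisons. The fit was tested on simulated data. The platform annotation gave 1 gene for 13513 probe sets, several for 503 and none for 8730, and positions are those of RefSeq on TAIR10.1. VTC2 was not analysed here.

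Comparisons that hold WT arrays on which a member was chosen, and all WT steps of the members, are given without a test, although a test at each stage had been planned. The 3 genes, the gene lists and the tests were chosen with earlier results of these data known. Named genes are the 3 members, the 5 genes most like each over all arrays, measured neighbours within 5 genes, the called genes of each protease list with the largest changes, at most 3 in a direction, and markers whose values stand beside a result; further list members are named beside a count or for contrast, after their values were seen. The replicate numbers of the labels did not pair the samples: the correlation, over 28 pairs of groups, of deviations from the group means ran from -0.137 to 0.165, with a median of -0.02, and 3 exceeded 0.1. Alternatives were quantile normalization, median centring, an offset of 30, a filter at a signal of 30, a trended prior, array weights, the replicate block, a fit of the compared groups only, Spearman correlation, adjusted p alone and leaving out each array.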

Additional observations from a re-analysis of the deposited data

Results flagged for a closer look

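The genotype difference of AT4G04460 changed direction between stages, with the arrays of vtc2-5 and WT not overlapping at any of the 3: it was 2.76 on the log2 scale at D7I, where all signals were dim, and -0.36 in zygotic embryos and -0.79 at D14I. No test of the change between these stages is given, because each pair includes WT arrays on which the gene had been chosen.

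AT5G10770 was higher in vtc2-5 in zygotic embryos, by 2.71, and lower in vtc2-5 at D7I (-0.69) and in mature somatic embryos (-3.91). Its arrays again did not overlap, with the same limit. Between zygotic embryos and D7I the difference was tested and did not pass (-3.40, limma adjusted p = 0.307). No test is given for mature somatic embryos against the other stages, because the gene was chosen on their WT arrays.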

How the results depend on the processing

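The limits are those of 2 arrays per group and of dim signals, for which no detection calls were used. In 8 other settings and with any of its compared arrays left out, the fall of AT4G04460 at D7I of vtc2-5 (-8.86 to -7.08 over the settings) and the rise of SBT4.12 in mature somatic embryos of vtc2-5 were called, and the cause of the changes listed here was not tested. Genes most like a member changed with the scale: with an offset of 30, 0 of 5 were shared for AT4G04460, 2 for AT5G10770 and 3 for SBT4.12, and with Spearman correlation 2, 3 and 0.

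With the replicate block no call of the members was changed, and the rise of SBT4.12 stayed at 5.83. The genotype difference of AT4G04460 at D7I, a description, was 0.52 with an offset of 30. The step of AT5G10770 out of zygotic embryos in vtc2-5, -2.56, passed with a trended prior (0.0398) and in a fit of the compared groups (0.0293).

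The offset of 30 gave AT5G10770 -2.00 (9.00e-04), 1.18 (0.0268) and -1.62 (0.00407) for D7I minus zygotic embryos, mature somatic embryos minus D14I and mature somatic minus zygotic embryos of vtc2-5, and -2.55 (0.0388) for the difference of the first step between genotypes. It gave WT steps of -7.97 and 0.93 for AT4G04460 (into D7I and D14I), -1.30 and 4.60 for AT5G10770 (into D14I and mature somatic embryos) and 5.24 for SBT4.12 (into mature somatic embryos). The step of vtc2-5 between D14I and D7I turned to -0.055 for AT4G04460 and -0.34 for SBT4.12 with quantile normalization, and to -0.12 for SBT4.12 with the offset.

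The subtilases called between genotypes at D7I became 1 with either normalization, quantile or median centring, and those in mature somatic embryos 1 with median centring and with the offset. With the offset 1 aspartic protease was called at D7I, 2 in mature somatic embryos, and 1 subtilase between D14I and D7I of vtc2-5.

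Leaving out 1 array at a time moved AT4G04460 to 2.33 to 3.19 at D7I and -0.29 to 0.45 in mature somatic embryos, and AT5G10770 to -0.99 to 2.91 at D14I and -4.67 to -3.14 in mature somatic embryos. SBT4.12 ranged from -1.86 to 1.04 at D7I and -0.21 to 1.75 at D14I. In vtc2-5 the step between D14I and D7I ran from -0.25 to 0.61 for AT4G04460 and -1.34 to 1.56 for SBT4.12, whose step into D7I ran from -0.49 to 2.41 and differed between genotypes by -0.73 to 2.18. Counts of aspartic proteases were 0 to 1 at D7I, 0 to 6 in mature somatic embryos and 0 to 1 for D14I minus D7I of vtc2-5. Those of subtilases were 0 to 1 in zygotic embryos (1 without WT replicate 2), 0 to 1 at D7I (1 without WT replicate 2) and 0 to 3 in mature somatic embryos.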

Other observations

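Other protease classes were read from the same arrays. Of 30 listed papain-type cysteine proteases 17 were measured, and in vtc2-5 at D7I relative to zygotic embryos 9 rose and 3 fell, where 30.1% of all probe sets were called (4092 higher, 2760 lower). AT2G34080 was among those that rose (limma adjusted p = 6.01e-07), with 2216 and 2323 at D7I of vtc2-5, against dim signals of 3.40 and 1.37 in vtc2-5 zygotic embryos, for which a fold has little meaning. Of the same list, 5 rose in vtc2-5 mature somatic embryos relative to D14I and 1 fell, where 22.5% of all probe sets were called: AT1G29090 rose by 4.38 (adjusted p = 6.19e-04) and AT2G34080 fell by 3.06 (adjusted p = 0.00150). No papain-type protease was called between the genotypes at any stage. From zygotic embryos to mature somatic embryos, 3, 2, 0 and 2 of 17 had an unadjusted p under 0.05 in limma. Over all 22746 probe sets these counts were 1558, 4679, 1024 and 5902.

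The vacuolar processing enzymes divided in the same step. ALPHA-VPE read 36.4 and 21.1 in vtc2-5 and 59.9 and 35.7 in WT at D7I, against 2647 and 1891 in vtc2-5 and 2699 and 3057 in WT zygotic embryos. ALPHA-VPE and DELTA-VPE fell in vtc2-5 at D7I, with log2 differences of -6.34 (adjusted p = 2.22e-05) and -5.59 (adjusted p = 0.00209), whereas BETA-VPE, with 4510 and 4254 at D7I of vtc2-5 and 6264 and 7897 in its zygotic embryos, and GAMMA-VPE were not called. Of 7 serine carboxypeptidases measured, SCPL27 was higher in vtc2-5 than in WT at D7I by 2.80 (adjusted p = 0.00320), where 2.7% of all probe sets were called. Its mean at D7I was 87.8 in vtc2-5 and dim in WT, at 12.8.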
